A study of Mus musculus with 4 samples.

Results

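The genes described here encode the proteins of the cytosolic ribosome. They were chosen by symbol: every gene in the tables whose symbol starts with Rps or Rpl and goes on with a number and at most one of the letters a, l, x or y, together with Rplp0, Rplp1, Rplp2 and Rpsa. Pseudogenes and the Rps6k kinases were left out. The rule found 80 members among 32285 genes: 31 of the small subunit, 46 of the large subunit and 3 of its stalk. All 80 gene identifiers were in the GENCODE vM21 annotation of mm10, on 19 chromosomes, and 4 members (Rpl10, Rpl36a, Rpl39 and Rps4x) lay on the X chromosome. The rule reads symbols only.

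Ribosomal proteins are needed in fixed proportions, and their messages are among the most abundant in resting lymphocytes. Most of these messages begin with a run of pyrimidines, which lets the growth-sensing mTOR and LARP1 pathway hold back or release their translation as a group. Lymphocytes build new ribosomes when they leave rest to grow and divide, with MYC driving the nucleolar factors that assemble them.

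The study put spleen cells of Il2rb KO mice and of Cre control mice, on a C57BL/6NRj background, into droplets. Mice were unimmunized (day 0) or taken 4 days after an intraperitoneal injection of sheep red blood cells (day 4). One library held B cells isolated with a magnetic kit, and the other held CD4+ T cells from a kit for naive CD4+ T cells. In each library 4 hashtag antibodies marked 4 pools, and values below are given in one order: unimmunized control, unimmunized KO, day 4 control, day 4 KO. The genotype field gives the same Cre and Il2rb fl/fl text for every sample, so the contrast between KO and control rests on the hashtag names. The Cre driver acts in the B lineage, so the T cells are those of the same mice and not themselves the target of the deletion. How many mice each pool drew on is not stated in the labels.

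After demultiplexing and a marker gate for lineage, the pools held 1096, 982, 1310 and 1871 B cells and 972, 1280, 1984 and 3219 T cells. Their summed depth ran from 4555052 to 20151801 unique molecular identifiers (UMIs), and median cells held 4528.5 to 6102 UMIs. The B cells lacked Cd4 UMIs in every pool, and Cd4 stood at 244 to 284 CPM in the T cells (CPM is UMIs of a gene for each 1e6 gene UMIs of a pool or gate). Il2rb, the targeted gene, gave 0, 0, 9 and 4 UMIs in the B pools. Those counts are too few to check the labels, and a tag at the 5′ end can lie outside the deleted part. Erythroid genes (Hba-a1, Hba-a2, Hbb-bs, Hbb-bt and Alas2) summed to 931 CPM in the KO day 4 B pool and to 1822 and 811 CPM in the KO day 0 and control day 4 T pools, against 3.29 to 15.2 CPM in the other 5 pools. Between the libraries, 84 cell barcodes were shared.

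The starts of 4 members are shown because their levels or differences set them apart below. Rps27 is a small-subunit protein with the highest median level over the B pools, and its near copy Rps27l is the least abundant tested member. Rps24, also of the small subunit, fell together with Rps27 in the germinal center and dividing T cell gates below. Rpl41 encodes the smallest ribosomal protein. Each window runs from 150 bases before to 20 bases after the first start listed for the gene in a RefSeq table on GRCm38.p6, 5′ to 3′ on the gene's strand, at chr3:90213629-90213798 (minus strand), chr9:66945936-66946105 (plus), chr14:24490528-24490697 (plus) and chr10:128549149-128549318 (minus). Capitals mark a pyrimidine run at the start and the letters CCGGAA on either strand.
Rps27: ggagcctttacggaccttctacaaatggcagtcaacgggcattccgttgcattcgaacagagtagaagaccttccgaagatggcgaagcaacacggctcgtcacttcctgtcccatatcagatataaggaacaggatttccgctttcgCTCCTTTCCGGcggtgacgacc
Rps27l: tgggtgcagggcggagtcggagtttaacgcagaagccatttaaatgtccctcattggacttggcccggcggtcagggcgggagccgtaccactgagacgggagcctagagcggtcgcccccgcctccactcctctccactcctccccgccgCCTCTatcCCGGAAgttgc
Rps24: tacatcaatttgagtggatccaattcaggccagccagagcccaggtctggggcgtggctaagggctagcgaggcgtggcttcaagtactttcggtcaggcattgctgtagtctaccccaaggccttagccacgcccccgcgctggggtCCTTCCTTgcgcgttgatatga
Rpl41: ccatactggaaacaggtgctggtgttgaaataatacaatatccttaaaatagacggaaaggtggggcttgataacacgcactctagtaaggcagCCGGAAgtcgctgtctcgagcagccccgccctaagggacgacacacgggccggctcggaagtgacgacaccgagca
In Rps27 a run of 9 pyrimidines crosses the listed start and shares bases with a CCGGAA match on the other strand. Rps27l has a run of 5 and a separate CCGGAA, Rps24 has a run of 8 without CCGGAA, and the Rpl41 window has CCGGAA without a run.

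Of the 80 members, 60 had a start in that table, which listed 27025 promoters by their first start. A run of at least 5 pyrimidines led by C within 10 bases of the start, read on the gene's own strand, was in 35 of 60 member promoters (58.3%) and in 30.8% of all promoters. CCGGAA, the core letters of ETS factor sites, was in 30 of 60 (50%) against 15.2% of all, counted on both strands. GGGCGG was in 35 (58.3%) against 35.9%, AAGATGGC in 4 (6.67%) against 2.88%, CACGTG, the E-box of MYC, in 5 (8.33%) against 7.24%, and TATAAA in 5 (8.33%) against 14.2%. These are letter matches, and 1 window can hold several motifs.

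Of the 80 members, 77 gave at least 500 UMIs and entered the comparisons in both libraries. The 3 others are near copies of abundant members, known mainly from testis or muscle. Rpl10l and Rpl3l gave 0 UMIs in every pool, which allows at most 0.149 to 0.659 CPM. Rpl39l gave 0, 3, 3 and 6 UMIs in the B pools and 1, 1, 8 and 11 in the T pools. Their partners Rpl10, Rpl3 and Rpl39 were all among the tested members.

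Members differed widely in level, and their order was much the same in both lineages. Because 1 UMI stands for 1 captured message, levels are per molecule and do not scale with transcript length. In B cells Rps27 stood at 8864, 8925, 8023 and 8155 CPM, followed, by median over the pools, by Rps29, Rps24, Rpl13 and Rps20. Rps29 was above Rps27 in both day 4 B pools, at 8481 and 8319 CPM. Rps27l stood at 135, 121, 192 and 159 CPM, and Rpl31, Rpl23a and Rpl41 were among the next lowest. The median of the highest member over the pools was 58.0 times that of the lowest in B cells and 92.6 times in T cells. In T cells Rps29 led at 12917, 13161, 11510 and 11873 CPM, ahead of Rps27, Rps24, Rplp1 and Rpl37a. The same 5 members as in B cells were lowest, with Rps27l at 111, 124, 161 and 144 CPM. Across the 77 members Spearman's rho between the lineages was 0.956; members share libraries and primers, so this is a description.

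**Figure D1:**
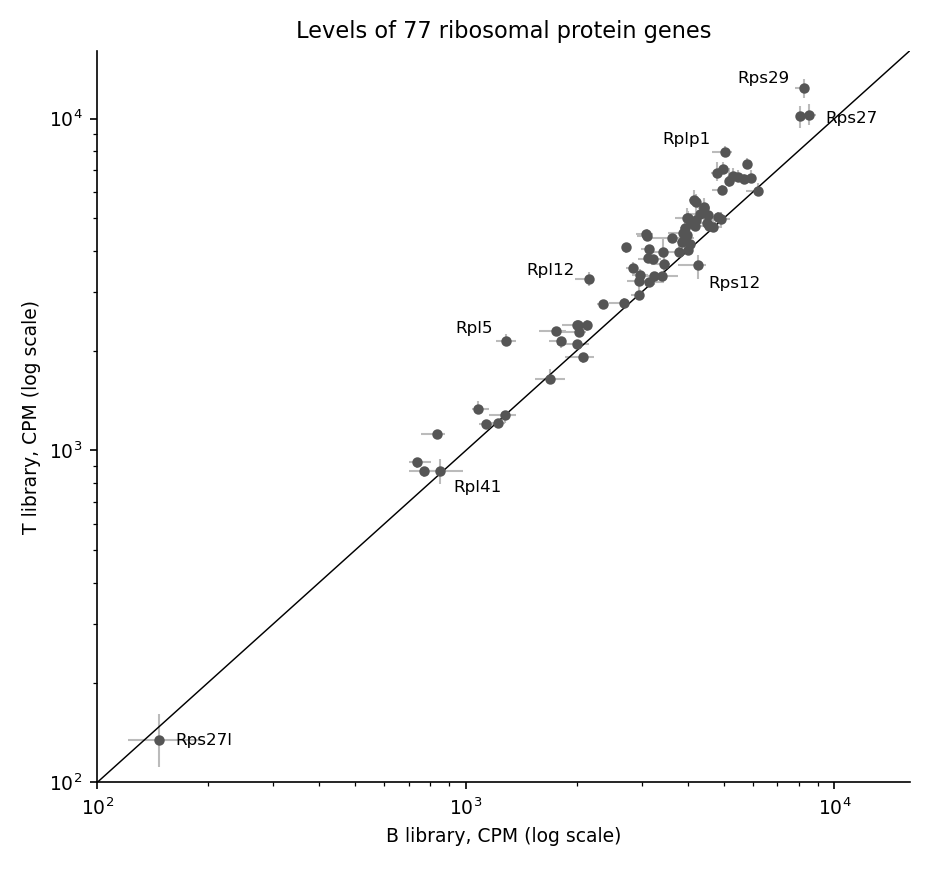
Level of each of the 77 tested members in the B library (horizontal axis) and the T library (vertical axis), as CPM on logarithmic axes. Points are medians over the 4 pools, lines span the pools, and the diagonal marks equal levels: most members lie above it, Rpl5, Rpl12 and Rplp1 among the farthest, while Rps12 lies below it and Rps27l stands lowest, between 111 and 192 CPM.

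Counting can misplace messages of near copies. In annotated transcripts, 20 of the 80 members shared at least 50% of their 60-base words with other genes or pseudogenes, 3 shared none, and the median member shared 31.2%. Rpl36a (85.1%), Rps6 (84.4%) and Rpl7a (79.5%) are therefore uncertain in level. The median level was 3172 CPM in B cells for the 20 and 3937 CPM for the others, leaving out the nearly absent Rpl10l, Rpl3l and Rpl39l. Rps27 shared 44.6% of its words.

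Ribosomal protein messages made up a larger part of the T cells' UMIs than of the B cells'. They were 25.9%, 27.4%, 28.2% and 27.7% of UMIs in the B pools and 32.7%, 34%, 32% and 32% in the T pools. Counting error was small beside these gaps: the exact 95% binomial interval of the KO day 0 B share, 27.35%, ran from 27.32% to 27.39%. The highest B pool lay below the lowest T pool. Each library is 1 preparation, so library and lineage cannot be told apart and no test was made. In the T pool over its B counterpart, 19 of 77 members were at least 1.2-fold higher in all 4 pools, against 18.5% of all 2912 genes compared, and 0 were that much lower, against 26.2% of genes. The median member ratio was 1.18, beside 0.958 over all genes.

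Rplp1 and Rpl5 were among the members with the largest T over B ratios. Rplp1, a stalk protein that binds elongation factors, stood at 4650, 4910, 5279 and 5177 CPM in B pools and 8040, 8287, 7782 and 7688 CPM in T pools, a ratio of 1.47 to 1.73. Rpl5, which carries 5S RNA and can restrain Mdm2, stood at 1207, 1244, 1368 and 1322 CPM against 2185, 2237, 2070 and 2079 CPM, a ratio of 1.51 to 1.81. Both genes were higher in every T pool with no overlap. Rpl12, which holds the base of the stalk, had ratios of 1.44 to 1.70 and Rplp2, the partner of Rplp1, of 1.38 to 1.56. The third stalk member, Rplp0, at 1.08 to 1.41, and the other 5S member, Rpl11, at 1.08 to 1.2, did not pass 1.2-fold in all pools. Rps12 ran the other way at 0.848 to 0.876. The stalk genes as a group made up 4.10% to 4.49% of ribosomal protein UMIs in B pools and 5.03% to 5.21% in T pools.

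In B cells of control mice, ribosomal protein messages were a larger part of UMIs at day 4 than at day 0, and in the other day contrasts the shares lay nearer to each other. The share at day 4 over day 0 was 1.087 (95% interval 1.086 to 1.089, counting error only) in control B cells and 1.012 (1.010 to 1.014) in KO B cells. In T cells it was 0.980 (0.978 to 0.981) and 0.939 (0.938 to 0.940). The control T ratio turned to 1.032 among cells of 3000 to 8000 UMIs and to 1.047 when both pools were given the same mix of gates, so its direction is not settled. With 1 pool a group, no interval holds the spread between mice and no test was made. In control B cells 75 of 77 members had a ratio above 1, with a median of 1.098 beside 0.95 over all genes. In KO B cells 52 of 77 did (median 1.017 beside 0.988). In T cells 37 of 77 did in controls (0.999 beside 1.005) and 9 of 77 in KO mice (0.942 beside 1.037). These T counts changed among cells of the naive marker gate alone, described below. There 75 of 77 members were above 1 in controls (median 1.075, share ratio 1.066). In KO mice 32 of 77 were (median 0.995, share ratio 0.991). Over all genes, 1671 of 4282 were above 1 in control B cells and 2268 of 4901 in KO B cells. In T cells 2210 of 4291 genes were in controls and 3418 of 5654 in KO mice.

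Few members passed a 1.2-fold difference between days. In control B cells 7 of 77 were at least 1.2-fold higher at day 4, against 10.7% of 4282 genes, and 0 were that much lower, against 22.8%. Among them were Rps27l (1.42), Rplp0 (1.34), Rps2 (1.29), Rpl41 (1.29), Rpl3 (1.23) and Rpl14. Rplp0, the stalk's anchor, stood at 3099 CPM at day 0 and 4162 CPM at day 4 in control B cells, and at 3402 and 3853 CPM in KO B cells. Rps2, at the mRNA entry channel, went from 2908 to 3756 CPM in control and from 3139 to 3652 CPM in KO B cells. Both were higher at day 4 in either genotype. Rps27 was lower at day 4, with ratios of 0.905 in control and 0.914 in KO B cells. Its fall was smaller in both genotypes within the follicular marker gate, by the levels given below beside the transitional gate. In KO B cells only Rps27l passed (1.31), against 8.08% of genes higher and 8.61% lower. Of the 77 members, 46 in control B cells and 55 in KO B cells were within 5% of the ratio of the ribosomal protein total, so most members kept close to their total.

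In T cells Rps27l again had the highest ratio, 1.45 in control mice, where it was the only member past 1.2-fold (against 14.1% of genes higher and 10.9% lower). In KO mice it was at 1.16 and no member passed (13.2% higher and 4.23% lower). Rpl41 and Rps12 had ratios of 1.19 and 1.18 in control T cells. The lowest ratios in control T cells belonged to Rps24 (0.869), Rps27 (0.886) and Rps29 (0.891), and in KO T cells to Rps21 (0.876), Rps27 (0.883) and Rps24 (0.886). Rps24, Rps27 and Rps29 are small-subunit members and the 3 most abundant in T cells. The mix of marker gates, described below, differed between days. The naive gate held 69.0% of control T cells at day 0 and 57.7% at day 4, and the dividing gate 0.41% and 4.28%. In KO mice the naive gate held 68.2% and 61.9%, and the dividing gate 0.94% and 3.39%. Rps29 levels in the naive gate, given below, differed little between days. The part of this mix in the ratios was not tested.

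On day 0 the KO pools had the higher share in both lineages, and on day 4 the size of the difference in B cells varied with the cells counted. On day 0 the KO share was 1.054 times the control share in B cells (95% interval 1.052 to 1.056) and 1.041 times in T cells (1.039 to 1.043). On day 4 it was 0.981 (0.980 to 0.983) and 0.998 (0.997 to 0.999), the latter at 1.001 among cells of 3000 to 8000 UMIs. In that window the B ratios were 1.025 on day 0 and 0.947 on day 4, and as a median over cells the day 4 B ratio was 0.955. In both lineages most members were above 1 on day 0, 74 and 73 of 77, but all were within 1.2-fold, against 2.04% of genes higher and 4.21% lower in B cells and 1.83% and 2.63% in T cells. On day 4, 9 and 28 of 77 were above 1. Over all genes, 1390 of 3277 in B cells and 1149 of 2735 in T cells were above 1 on day 0. On day 4, 3506 of 5610 and 3708 of 6416 genes were. The only member past the fold was Rps27l in B cells, lower in the KO pool at 0.829 (0.780 to 0.882), against 3.4% of genes lower and 5.15% higher. This call, like the Rps27l calls in KO B cells and control T cells between days, was lost among follicular or naive cells alone. In T cells none passed on day 4, against 1.98% of genes higher and 1.85% lower. Erythroid genes differed between the day 0 T pools (3.29 CPM in control and 1822 CPM in KO) and less between the day 0 B pools (15.2 and 10.5 CPM), and their part in the shares was not tested.

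**Figure D2:**
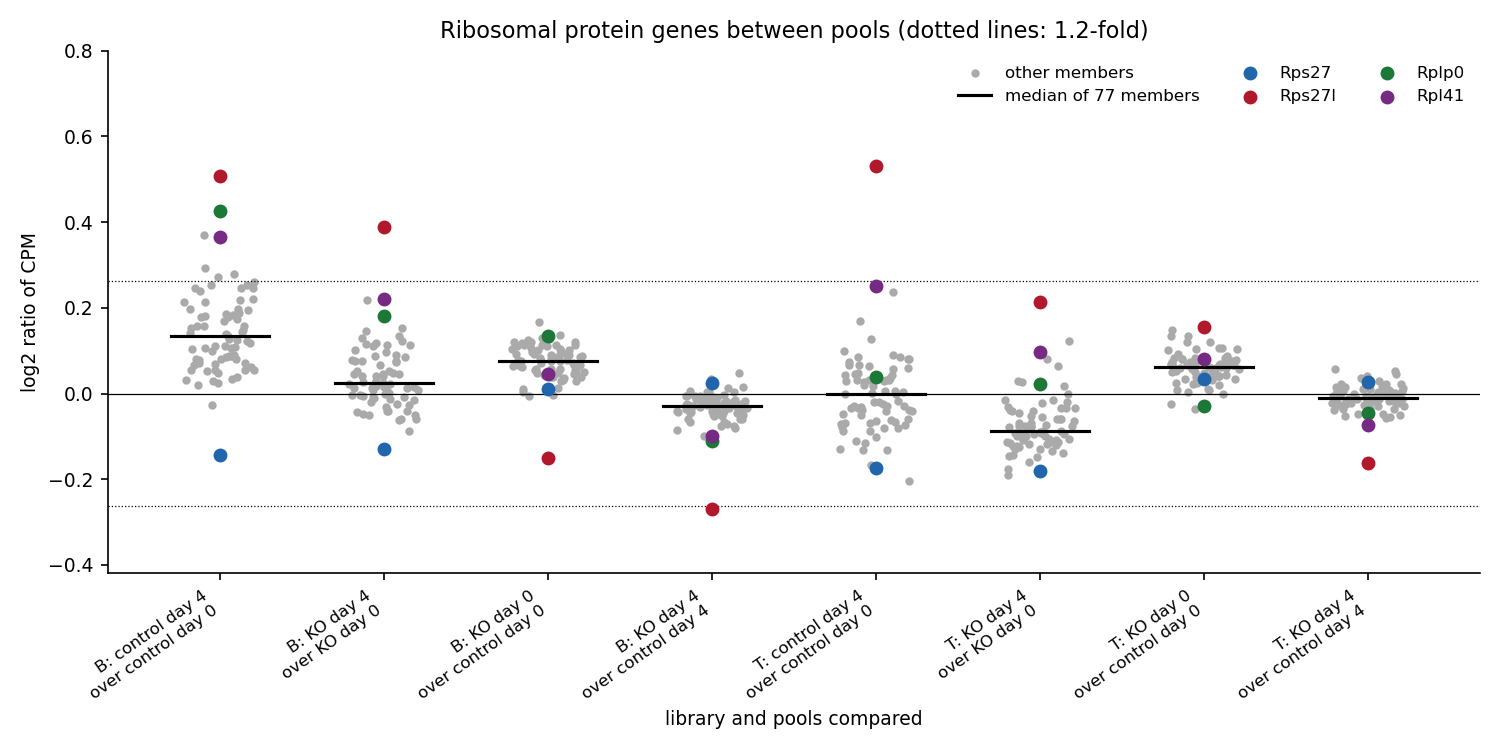
Log2 ratio of CPM between pools for each of the 77 tested members, in 4 contrasts of each library, with bars at the median member and dotted lines at 1.2-fold. In control B cells 75 of 77 points lie above 0 at day 4 over day 0, Rps27l lies highest and Rps27 lowest.

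Marker gates divided both libraries into subsets, and the ribosomal protein share varied more between subsets than between pools. The gates are named for the markers that set them, as cells like the named type. In B cells the follicular gate held 26.9%, 27.9%, 29.7% and 28.6% ribosomal protein UMIs (28.3% ± 1.2, SD, n = 4 pools). The marginal zone gate held 29.3%, 32%, 33.1% and 31.1% (31.4% ± 1.64, n = 4) and the transitional gate, of newly arrived B cells, 23.6%, 24.5%, 26.2% and 24.8% (24.8% ± 1.08, n = 4). Within each of the 4 pools the marginal zone gate lay above the follicular gate and the transitional gate below it. The activated gate, set by Samsn1, Nfil3, Socs3 and other genes drawn from earlier results of these data, held 28.5% ± 0.96 (n = 4), close to the follicular gate.

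Lower shares were seen in the germinal center and plasma gates, which rest on 12 to 33 and 10 to 23 cells a pool. The germinal center gate held 20.7%, 24.8% and 23.1% in the 3 pools with at least 10 cells, all but control day 0 (22.9% ± 2.08). The plasma gate held 9.39%, 16.0% and 20.4% in control day 0, control day 4 and KO day 4. There, immunoglobulin messages took 51.1%, 27.9% and 18.3% of UMIs, and without them the share was 19.2%, 22.2% and 24.9%. The plasma gate thus stayed below the follicular gate in its 3 pools also without receptor messages. The B1 gate held 26.9%, 29.6% and 25.5% over 3 pools of 10 to 12 cells, and the myeloid gene Fcer1g and the macrophage gene Apoe were among its leading genes. The gate for dividing B cells, with 28.5% and 27.7% in the day 4 pools, was led by Ifitm1 and the red cell gene Car1 and was not tested.

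In T cells every other gate lay below the naive gate in each pool. The naive gate held 34.3%, 35.9%, 36.5% and 35.6% (35.6% ± 0.95, n = 4). The innate-like gate held 29.8% ± 0.51 (n = 4), the regulatory gate 28.7% ± 1.64 (n = 4), the follicular helper gate 25.5% ± 1.21 (n = 3), the effector or memory gate 24.6% ± 0.47 (n = 4) and the dividing gate 22.8% ± 1.2 (n = 3). The follicular helper and effector or memory gates overlapped in their pool values, as did the innate-like and regulatory gates. Hemoglobin genes led the naive gate over the other T gates, and their part in the differences was not tested. Depth differed between gates too: median cells of the dividing T gate held 5813 to 15831 UMIs, and those of the germinal center gate 13728 to 17229, against 4653.5 to 5668.5 in the follicular gate. Among cells of 3000 to 8000 UMIs the means were 35.9% for the naive gate and 22.1% for the dividing T gate, and 27.7%, 30.5% and 23.5% for the follicular, marginal zone and transitional gates.

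**Figure D3:**
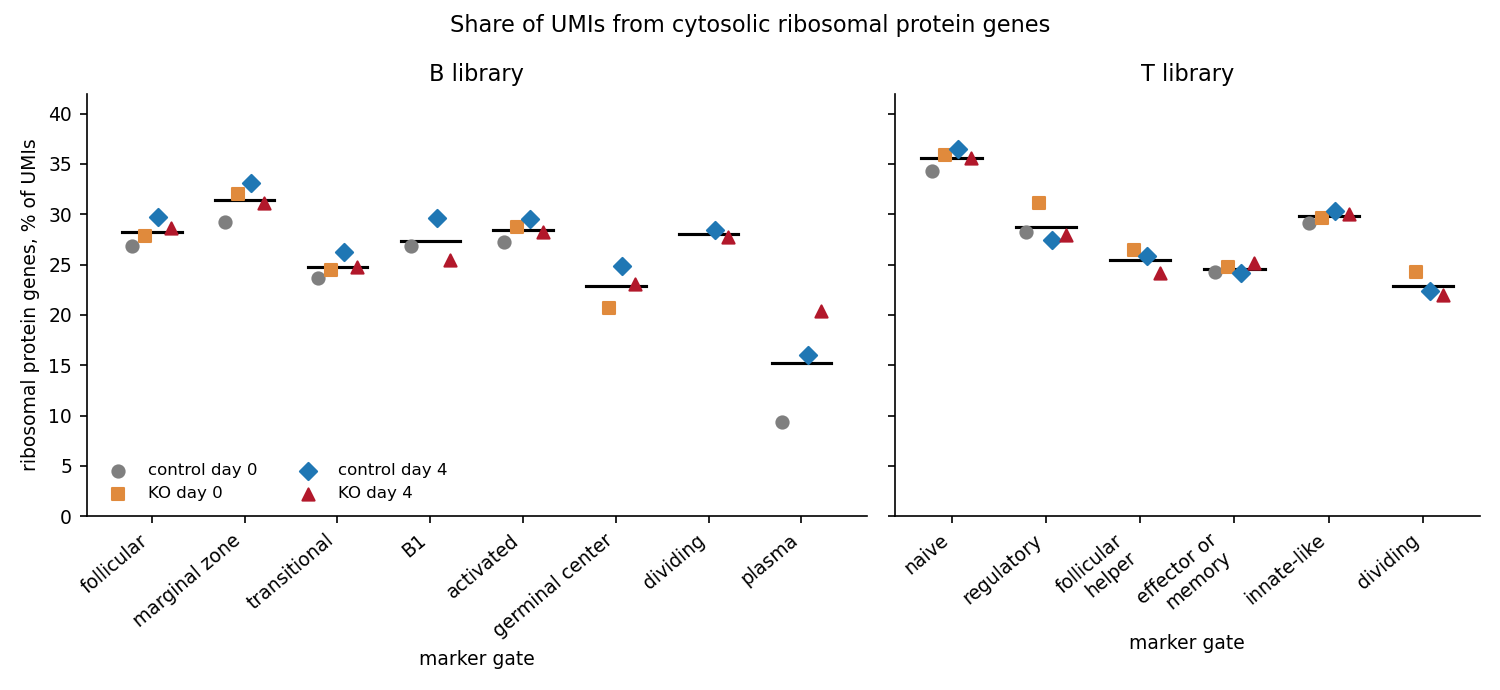
Share of UMIs from the 80 members, in percent, in each marker gate of the B and T libraries. Symbols are pools with at least 10 cells, by genotype and day, and bars the mean over pools. The marginal zone gate is highest among B gates and the naive gate highest among T gates.

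Members were then tested between each gate and the follicular or naive gate of the same pools, with edgeR's quasi-likelihood test, pool as block and Benjamini-Hochberg adjustment over all genes. The gates of a library share that reference, so calls in several gates are not independent of each other. In the marginal zone gate 50 of 77 members were higher and 0 lower at adjusted p under 0.05, against 4.69% of all genes higher and 6.86% lower. The median member difference was 0.16 on the log2 scale beside −0.08 over all genes. The calls took in 20 of 31 small-subunit members, 28 of 43 large-subunit members and 2 of the 3 stalk members. Without the control day 4 pool, 33 members were called.

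Rplp1 led the marginal zone gate. It stood at 6196, 6737, 7025 and 6791 CPM there and at 4736, 4849, 5419 and 5211 CPM in the follicular gate, a log2 difference of 0.40 ± 0.03 (SE, adjusted p = 9.54e-07). The groups did not overlap. Rplp0 was at 3933 to 4797 CPM against 3017 to 3916 CPM (0.34 ± 0.04, adjusted p = 4.39e-05). Rplp2 differed by 0.09 ± 0.03 and did not pass (adjusted p = 0.106). Rpl32 (0.34 ± 0.03, adjusted p = 9.56e-06) was also among the largest differences. Rps27 (−0.04), Rps24 (0.00) and Rps29 (0.02), the most abundant members, did not pass in this gate.

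In the transitional gate 59 of 77 members were lower and 0 higher, against 1.81% of genes lower and 4.72% higher, with a median member difference of −0.17 beside 0.08 over all genes. Rps27 stood at 7405, 7225, 7755 and 7352 CPM against 9785, 9670, 9601 and 9144 CPM in the follicular gate. All 4 transitional values lay below the follicular ones, and Rps27 fell by 0.36 on the log2 scale (SE 0.02, adjusted p = 2.15e-07). Rpsa, which encodes a protein that is also a laminin receptor, was at 3688, 3899, 4265 and 4049 CPM against 4537, 4751, 5274 and 5174 CPM, and it fell by 0.31. All 3 stalk members and both 5S members were among those called lower. Under TMM scaling 73 members were lower, and with cells thinned to 1500 UMIs 33 were.

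In the activated gate Rplp0 was the only member called (0.19 ± 0.04 on the log2 scale, adjusted p = 0.0415), 1 of 77 against 0.561% of genes higher, and 0 were lower against 0.664%. Rplp0 stood at 3820, 4012, 4202 and 3826 CPM there, higher than the follicular gate in each pool, with the sets overlapping. DESeq2, scaling to other genes, and leaving out any pool except KO day 4 each ended that call. In the B1 gate no member was called, against 1.56% of genes higher and 1.09% lower. At unadjusted p under 0.05 there were 10 members, and DESeq2 called 0. Its Rps27 stood at 7608, 7776 and 7571 CPM, and the difference of −0.31 had an adjusted p of 0.0587.

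In the germinal center gate members split, with 46 of 77 lower and 4 higher, against 11.2% of genes lower and 19.2% higher. Rps27 stood at 5416, 4109 and 4469 CPM against 9670, 9601 and 9144 CPM in the same pools' follicular gate and fell by 1.03 on the log2 scale (SE 0.07, adjusted p = 8.63e-07). Rps24 was at 4407, 4818 and 4690 CPM against 8708, 9169 and 8857 CPM and fell by 0.94 (SE 0.06, adjusted p = 2.41e-07). For both genes the 2 gates lay far apart, without overlap. Rps27l went the other way, at 297, 332 and 337 CPM against 106, 114 and 121 CPM (1.5 ± 0.14, adjusted p = 1e-05). Rpl41 (0.45, at 791, 1316 and 1258 CPM) and Rpl28 (0.34) were also called higher. Without KO day 0 the higher calls were 8, without either day 4 pool they were 2, and without KO day 4 the lower calls were 30. DESeq2 called 2 higher.

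In the plasma gate 1 member was higher and 1 lower, against 6.6% of genes higher and 19.4% lower, though the members' median difference was −0.93 beside −0.59 over all genes. Rps27l rose, from 119, 114 and 121 CPM to 385, 686 and 475 CPM (2.09 ± 0.47, adjusted p = 0.00132). Rps27 stood at 2374, 2446 and 3510 CPM against 9785, 9601 and 9144 CPM (−1.80 ± 0.57, adjusted p = 0.0182). Both sets were apart in every pool. The 3 pools were far less alike here than in other gates, as the SE shows, and without control day 4 neither gene was called. The Rps27 call was also lost without KO day 4. Scaled to other genes, or with DESeq2, more members were lower, 4 and 5.

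The T gates had the most lower calls. Against the naive gate, 74 of 77 members were lower in the effector or memory gate, 68 in the follicular helper gate, 66 in the regulatory gate, 66 in the dividing gate and 62 in the innate-like gate. The shares of all genes called lower were 4.07%, 6.26%, 5.41%, 13.8% and 2.46% in that order. Those called higher were 1, 1, 1, 3 and 0 members, against 22.9%, 23.1%, 23.8%, 35.2% and 5% of genes. Member medians were −0.51, −0.47, −0.27, −0.61 and −0.24 on the log2 scale, beside 0.28, 0.21, 0.19, 0.20 and 0.07 over all genes. Under TMM the median over all genes moved to between −0.12 and 0.00 in the gates of both libraries, and 72 to 76 members were lower in these 5 gates. With cells thinned to 1500 UMIs, 36 were lower in the innate-like gate.

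**Figure D4:**
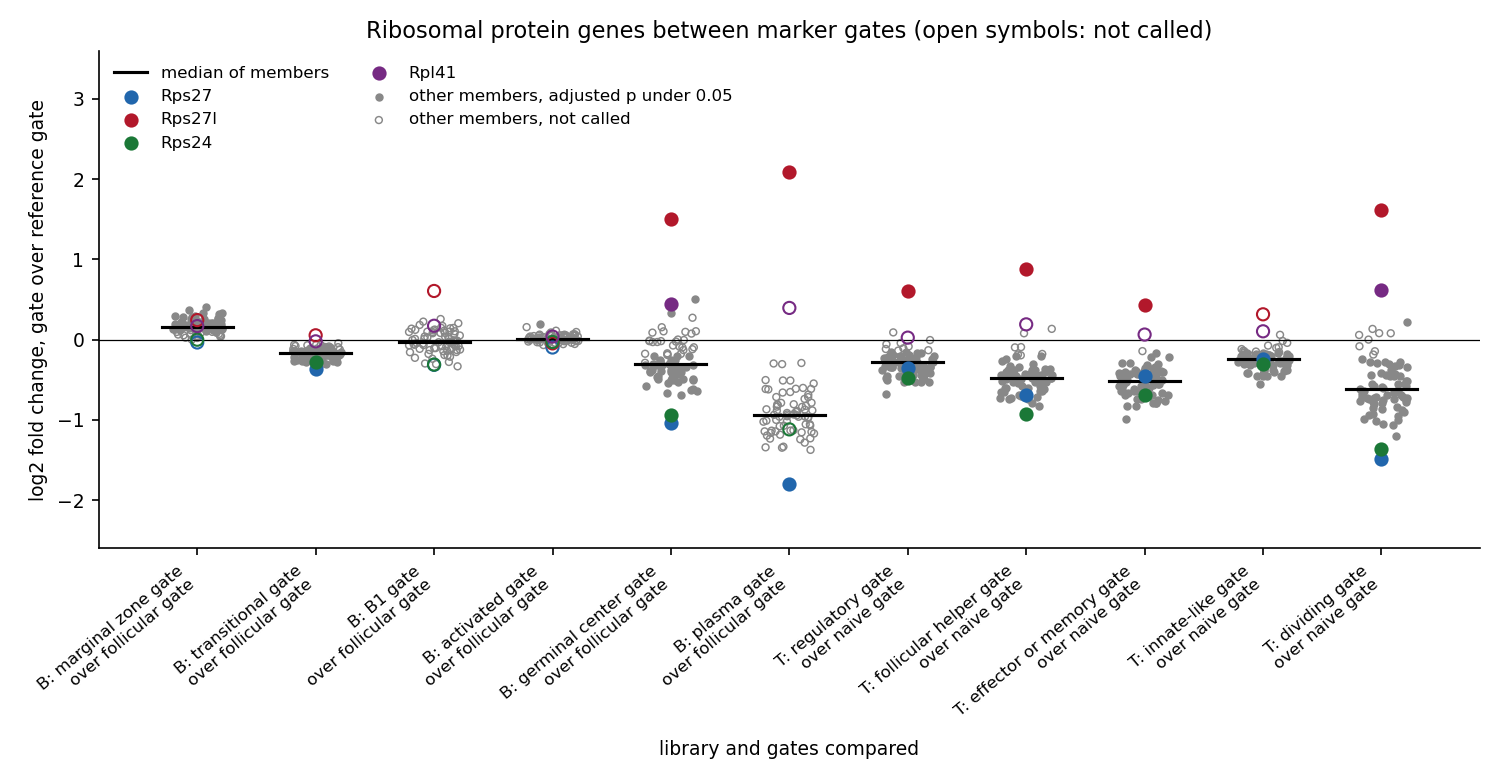
Log2 difference of each tested member between a gate and the follicular (B) or naive (T) gate, filled where called at adjusted p under 0.05 and open where not, with bars at the median member. The medians lie above 0 in the marginal zone gate and below 0 in the transitional gate and all T gates, and Rps27l stands above the others in the germinal center, plasma and dividing T gates.

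Rps29, Rps20, Rps24 and Rps19, all of the small subunit, were among the largest differences in the T gates. Rps29 stood at 7870, 8332, 7439 and 8242 CPM in the effector or memory gate and at 14042, 14314, 14100 and 14042 CPM in the naive gate, and it fell by 0.83 on the log2 scale (SE 0.04, adjusted p = 6.24e-24). Rps20 was at 3527, 3805, 3600 and 4228 CPM against 7216, 7558, 7823 and 7450 CPM, the largest difference in that gate (−0.99). In both genes all 4 memory values lay below all 4 naive ones. Rps24 fell by 0.93 in the follicular helper gate (SE 0.07, adjusted p = 1.31e-35), at 7148, 5826 and 5534 CPM against 11752, 11394 and 11391 CPM. Rps29 fell by 0.67 in the regulatory gate (SE 0.05, adjusted p = 4.52e-15) and Rps19, mutated in Diamond-Blackfan anemia, had the largest difference in the innate-like gate (−0.56). The 2 members that missed the threshold in the effector or memory gate were Rpl24 and Rpl41.

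Members spread most widely, among the T gates, in the dividing gate. Rps27 stood at 3970, 4237 and 4087 CPM against 11789, 11497 and 11257 CPM in the naive gate and fell by 1.49 (SE 0.07, adjusted p = 4.06e-14). Rps24 fell by 1.37 and was at 4707, 4363 and 4350 CPM, and Rps29 was at 5834, 6295 and 6255 CPM. Each of the 3 lay under every naive value. Rpl41 rose, from 814, 850 and 859 CPM to 1492, 1276 and 1204 CPM (0.62 ± 0.08, adjusted p = 2.02e-06). Rps12 differed by 0.08 without passing (adjusted p = 0.355).

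Rps27 and Rps27l encode close relatives of the same small-subunit protein, at chr3:90212522-90213651 (minus strand) and chr9:66946086-66949516 (plus strand) on mm10, both annotated as protein-coding. Rps27l is known as a target of p53. Rps27l UMIs per 100 Rps27 UMIs were 1.1 to 1.32 in the follicular gate, 5.49 to 8.07 in the germinal center gate and 13.5 to 28.1 in the plasma gate. In T cells they were 0.905 to 0.962 in the naive gate, 1.22 to 2.18 in the regulatory gate, 2.74 to 4.03 in the follicular helper gate and 7.42 to 8.45 in the dividing gate. For these gates the ranges over pools did not overlap that of the follicular or naive gate. The ranges also stayed apart from it in the transitional gate (1.58 to 1.64), the B1 gate (2.15 to 2.53) and the effector or memory gate (1.18 to 2.24). They did overlap it in the marginal zone gate (1.15 to 1.79), the activated gate (0.663 to 1.48) and the innate-like gate (0.843 to 2.27). The gate for dividing B cells, in the 2 day 4 pools, held 6.22 and 7.12. Rps27rt, a retrocopy of Rps27 outside the symbol rule, also fell in the germinal center (−1.14) and dividing T gates (−1.64), and its reads cannot be told apart from those of Rps27 where the copies are identical.

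**Figure D5:**
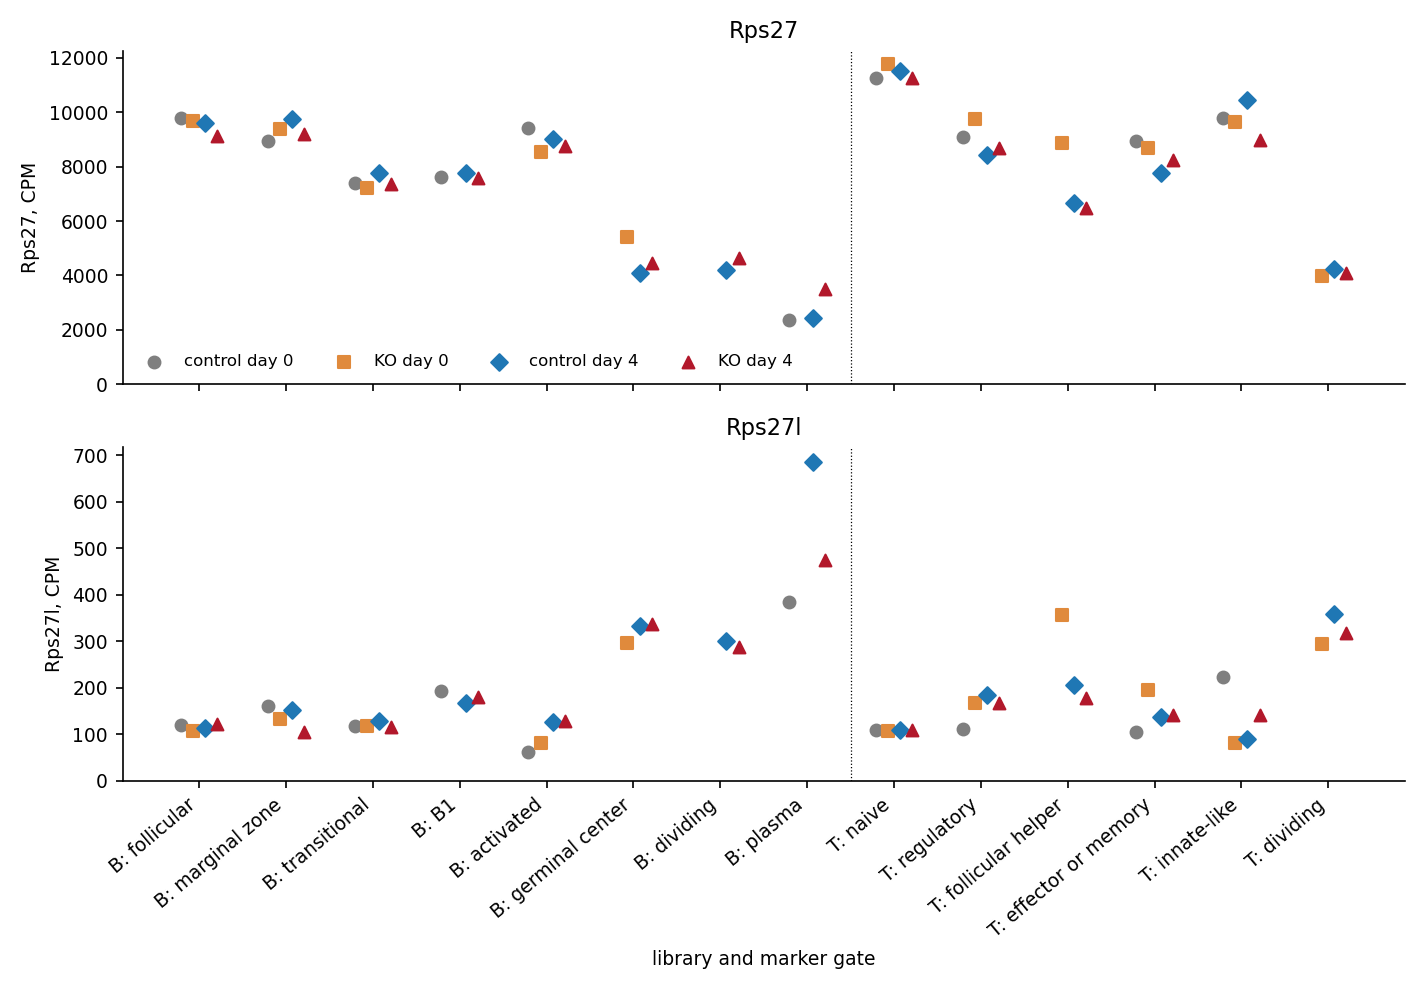
Level of Rps27 (top) and Rps27l (bottom) in each marker gate of the B and T libraries, as CPM on linear axes from 0, with 1 symbol for each pool of at least 10 cells. Rps27l stands at 295 to 686 CPM in the germinal center, plasma and dividing T gates, where Rps27 is low.

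Rps27l was also called higher in the regulatory gate (0.61 ± 0.10, adjusted p = 2.05e-06) and in the follicular helper gate (0.88 ± 0.12, adjusted p = 6.61e-12). In the regulatory gate it stood at 111, 168, 184 and 166 CPM against 107 to 108 CPM in naive cells, and every regulatory value was the higher one. In the follicular helper gate it was at 356, 205 and 177 CPM, highest in the KO day 0 pool, which gave 10 cells. Without that pool 3 members were called higher in the gate. In the effector or memory gate it was at 106, 195, 137 and 142 CPM and passed (0.43 ± 0.14, adjusted p = 0.0138). Without either KO pool, and with TMM, DESeq2 or scaling to other genes, that call was lost. It did not pass in the marginal zone, transitional, B1, activated or innate-like gates.

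The stalk and 5S members can be followed through all gates. Rplp1 fell in the germinal center gate (−0.48 ± 0.09, adjusted p = 0.0012), at 2820, 4340 and 4055 CPM, lowest in KO day 0. Rplp0 did not pass there (0.16 ± 0.07, adjusted p = 0.102), at 3555, 4620 and 3963 CPM. In T cells Rplp0 fell by 0.78 in the effector or memory gate (SE 0.05, adjusted p = 2.72e-18) and by 0.25 in the dividing gate (SE 0.07, adjusted p = 0.00519), while Rplp1 fell by 0.62 and by 0.79. Rplp2 fell in 4 of 5 T gates and was at −0.10 in the innate-like gate (adjusted p = 0.352). Rpl5 fell in all 5 T gates, by 0.38 to 0.87, and Rpl11, its partner in the 5S particle, by 0.20 to 0.51. In the germinal center gate Rpl11 fell (−0.26, adjusted p = 0.0319) and Rpl5 did not pass (−0.07, adjusted p = 0.644).

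Other genes of the translation machinery were counted beside the members. Ribosome biogenesis factors were higher at day 4 in B cells: 11 of 19 with enough UMIs were at least 1.2-fold higher in control mice (median ratio 1.27) and 12 of 20 in KO mice (1.21), against 10.7% and 8.08% of all genes. In T cells 1 of 18 and 2 of 23 were, against 14.1% and 13.2%. Ncl, which encodes nucleolin, had ratios of 1.38 and 1.30 in B cells. Npm1 was counted as one of 17 other translation genes of the pyrimidine-start class. It had the highest ratios of that list, 1.28 and 1.23, beside list medians of 1.13 and 1.04. In KO B cells at day 4 over day 0 the biogenesis factors were higher by a median of 1.21 while the members' median was 1.017. Between gates, 5 of 27 biogenesis genes were higher in the germinal center gate, against 19.2% of all genes, and 7 higher and 4 lower in the dividing T gate, against 35.2% and 13.8%. Those gate counts lay near or below the shares of all genes.

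Mitochondrial ribosomal protein genes, which serve a separate ribosome, were mostly called higher or not called in these gates. Of 78, 35 were higher and 0 lower in the germinal center gate, where 19.2% of all genes were higher, and 56 were higher and 1 lower in the dividing T gate, where 35.2% were. In the follicular helper gate 25, in the effector or memory gate 14 and in the regulatory gate 10 were higher, with 0, 0 and 1 lower, against 23.1%, 22.9% and 23.8% of all genes higher. The counts in the effector or memory and regulatory gates were thus no larger a share than over all genes. Of the ribosomal genes outside the symbol rule, Fau, whose product carries a small-subunit protein, fell by 0.44 in the germinal center gate and by 0.64 in the dividing T gate. Of 17 other translation genes of the pyrimidine-start class, 6 were higher and 3 lower in the germinal center gate, against 19.2% and 11.2% of all genes, and 4 and 5 in the dividing T gate, against 35.2% and 13.8%.

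B cells with at least 2 Myc UMIs held 28.6%, 29.3%, 29.6% and 29.2% ribosomal protein UMIs, and the other B cells 25.7%, 27.1%, 28.0% and 27.4%. The Myc cells were deeper, with medians of 6674 to 9387 UMIs against 4571 to 5931. Among cells of 3000 to 8000 UMIs the shares were 25.7%, 26.5%, 29.0% and 28.8% against 26.0%, 26.7%, 29.0% and 27.3%. In that window the B cells with Myc were above the others in KO day 4, level with them in control day 4 and below them in the day 0 pools, where they were 36 and 41 cells. T cells with at least 2 Myc UMIs held 33.3%, 35.9%, 36.5% and 36.1% in the same window, on 18, 37, 80 and 191 cells. The other T cells there held 33.2%, 34.7%, 34.2% and 34.2%. In single cells of each B pool the share correlated weakly with depth (Spearman's rho 0.22 to 0.26). In the T pools rho was 0.25, 0.28, 0.05 and 0.04. These values describe cells that share a library.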

How the data were processed

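The deposited matrices hold counts of UMIs per cell, made by the authors with Cell Ranger 5.0.0 on mm10 per the submitters' processing notes, from 10x 5′ v2 libraries per the labels' protocols. The annotation release is not stated. Deposited hashtag counts in the same files gave the pools. A floor of 200 genes and a ceiling of 10% mitochondrial UMIs kept 6218 of 6339 B and 9196 of 9307 T cells. HTODemux of Seurat 5.3.0 (R 4.3.3, positive quantile 0.99) left 5477 and 7636 cells with 1 hashtag, which removed doublets between pools; doublets within a pool were not called. A lineage gate (at least 3 UMIs of B cell genes such as Cd79a, Cd79b and Ms4a1, or at least 2 of Cd3d, Cd3e and Cd3g, with at most 1 of the other lineage and of myeloid genes) left 5259 and 7455 cells. The members, gates and gene lists were chosen with earlier results of these data known.

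Subset gates counted different markers with a UMI, such as Dtx1, Cr2 and Myof without Fcer2a for marginal zone, Cd93 and Vpreb3 for transitional, Mef2b and S1pr2 for germinal center, Prdm1 or Sdc1 with Jchain or Xbp1 for plasma, Foxp3 for regulatory, Cxcr5 and Pdcd1 without Foxp3 for follicular helper, and Ccr7 and Lef1 for naive. Deeper cells pass such gates more readily. Pools were compared by CPM where both sums held at least 500 UMIs together, with a gene counted past 1.2-fold and no test, as each group is 1 pool. Intervals are 95% binomial intervals of counting error only. Gates were compared on UMIs summed by pool and gate with edgeR 4.0.16 (quasi-likelihood, total-UMI scaling, filterByExpr, pool as block, at least 10 cells in both gates and 3 pools), with Benjamini-Hochberg adjustment over all genes and a threshold of 0.05. SE came from the F statistic. The procedure was run on simulated data for the marginal zone comparison only. Changes were put into genes of lower level than the tested members, so that run does not cover changes in the members. These p-values rest on the spread between 3 or 4 pools that differ in genotype and day. The test draws each gene's spread toward that of the other genes. Very small p-values thus do not come from a gene's own pools alone. DESeq2 1.42.0 and other settings are given in the closing section. Genes were named by rule: the 5 highest and 5 lowest levels, the 3 highest and 3 lowest ratios past the fold or threshold, all stalk and 5S members and all near copies. Other named members, and the values followed from gate to gate, were chosen after their values were seen. Some members and markers are not reported here by name, and counts include them.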

Additional observations from a re-analysis of the deposited data

Results flagged for a closer look

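In several cell sets the day effect on the ribosomal protein share went one way in control and the other way in KO mice, or the KO over control effect turned between days. The day 4 over day 0 ratio in KO mice, divided by that in control mice, was 0.931 over all B cells, 0.959 over all T cells, 0.930 in the follicular gate, 0.858 in the marginal zone gate, 0.912 in the transitional gate, 0.906 in the activated gate and 0.930 in the naive gate. It was 1.02 in the effector or memory gate and 0.976 in the innate-like gate. In the marginal zone gate the share rested on 46, 51, 76 and 75 cells. Each of these compares 1 pool with 1 pool, and the difference was not tested. Over 10 sets of cells, which are not independent of each other, the ratio was below 1 in 9, KO lay above control at day 0 in 10, and KO lay below control at day 4 in 8.

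The day effect also differed between libraries. The ratio of the B to the T day effect was 1.11 in control mice and 1.08 in KO mice. The control T ratio of 0.980 within it turned to between 1.011 and 1.047 in 4 other settings, so its direction is not settled. This difference was not tested either, and library and lineage cannot be told apart.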

How the results depend on the processing

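Shares of UMIs are relative, so a gene outside the list that takes many UMIs lowers them, and 1 pool a group leaves the spread between mice unmeasured. Share ratios between pools kept their direction in 65 of 72 settings. In the order control B day 4 over day 0, KO B day 4 over day 0, KO over control B at day 0 and at day 4, then the same for T cells, they were 1.061, 1.014, 1.046, 0.99995, 0.978, 0.947, 1.032 and 0.999 without a lineage gate, 1.114, 1.029, 1.025, 0.947, 1.032, 0.989, 1.045 and 1.001 in cells of 3000 to 8000 UMIs, 1.121, 1.020, 1.0504, 0.955, 1.024, 0.974, 1.061 and 1.009 as medians over cells, 1.127, 1.027, 1.046, 0.953, 1.011, 0.968, 1.045 and 1.001 without the 5% of cells with most UMIs, and 1.116, 1.016, 1.051, 0.968, 1.047, 0.985, 1.045 and 0.985 with the gate mix of the second pool, a setting added after seeing the data. The control T day effect thus turned above 1 in 4 of these settings and the KO over control T ratio at day 4 in 3, and the cause was not tested. With hashtags called by margin the moved ratios were 1.085 and 0.983 in B cells and 0.969, 0.927, 1.039 and 0.994 in T cells. Without receptor genes the B ratios were 1.090, 1.008, 1.046 and 0.968. Without mitochondrial genes, control B was at 1.085, KO over control B at day 4 at 0.985 and the T one at 0.999, and with at most 5% mitochondrial UMIs the B one was at 0.984.

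Gate shares moved when cells were thinned to 1500 UMIs, to 22.9% for transitional, 23.4% for dividing B, 23.5% for follicular helper, 23.8% for effector or memory, 27.6% for innate-like and 20.1% for dividing T. The plasma mean was 22.1% without receptor genes, and transitional was 23.5% and activated 26.6% in the UMI window.

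At a 1.1-fold limit, members past it were 38 higher and 1 lower in control B cells between days, 6 higher in KO B cells, 1 and 1 for KO over control B at day 0, 4 and 3 in control T cells, 1 and 8 in KO T cells, 2 higher at day 0 and 1 lower at day 4 for KO over control T. At 1.5-fold they were 0 in each comparison with a call. Scaled to other genes control B had 15 higher. The single Rps27l calls (KO B between days, KO over control B at day 4, control T between days) went to 0 in follicular or naive cells alone and in the UMI window, and the second also by margin hashtags.

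Gate tests with other settings gave 33 lower in transitional and 36 in innate-like after thinning, 3 lower in B1 and 2 higher and 1 lower in activated without a count filter, 0 higher in activated with DESeq2 or scaling to other genes, 2 higher in germinal center with DESeq2, 2 higher and 5 lower in plasma with DESeq2 and 4 lower scaled to other genes, and 0 higher in effector or memory with TMM, DESeq2 or scaling to other genes. Leaving out 1 pool gave 33 to 46 higher in marginal zone, 47 to 53 lower in transitional, 0 to 1 higher in activated, 2 to 8 higher and 30 to 47 lower in germinal center, 0 to 1 each way in plasma, 52 to 69 lower in regulatory, 1 to 3 higher and 56 to 70 lower in follicular helper, 0 to 1 higher and 73 to 74 lower in effector or memory, 43 to 57 lower in innate-like, and 2 to 4 higher and 56 to 69 lower in dividing T. Thinned tests were not run for gates left with fewer than 3 pools, nor the UMI window for the B1, germinal center, dividing B and plasma shares. Pools of different genotype or day could not be paired, because the samples carry no replicate numbers and each pool is 1 sample. In the gate tests the 2 gates of a pool were paired, with pool as a block.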
